A study of Mus musculus with 58 samples.

Results

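The Hox genes of all 4 clusters were followed in mouse adipose stem cells (ASC). All libraries are labelled as sorted from inguinal white adipose tissue (iWAT), a subcutaneous fat depot at the level of the hind limb. Members were all rows whose mouse Ensembl identifier carries the symbol Hoxa, Hoxb, Hoxc or Hoxd with a number, which gave 39 of the 56953 genes in the table. Of these, 36 had at least 1 read and 3 had none (Hoxb13, Hoxc12 and Hoxd1). A total of 17 members reached 5 reads in more than 3 libraries and were tested, 10 of them numbered 1 to 8 and 7 numbered 9 to 13, and the other 22 are given by their range only.

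RNA of 58 libraries had been prepared by Smart-seq3, a full-length cDNA protocol, from cells sorted as CD45-/CD31-/CD34+, which leaves out leukocytes and endothelium. The surface protein DPP4 divided them into ASC1, which lack it, and ASC2, which carry it. All mice were C57BL6/J, gonadectomy had taken place at 4 weeks of age, and the operated mice were terminated at 10 weeks together with age-matched controls. The labels give control males (7 ASC1 and 8 ASC2 libraries), castrated males (8 and 8), control females (8 and 8) and ovariectomized females (3 and 8). Libraries are named by the letter in their label, A to H in controls and I to P in operated mice. The labels do not say which ASC1 and ASC2 libraries came from the same mouse or whether controls had sham surgery. The study gives its n for these samples as biological replicates. The p-values measure only the spread between libraries of a group.

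Hox genes encode homeodomain transcription factors that lie in 4 clusters on different chromosomes. Low numbers mark the end of a cluster that is used in the anterior of the embryo and high numbers the end used in the posterior, the limb and the genital region, and genes that share a number across clusters are paralogs. Adult fibroblasts and fat cell precursors keep part of this positional code, so that the set of Hox genes they express differs between body sites and between fat depots. The proteins bind DNA together with cofactors of the PBX and MEIS families, and the clusters are held silent or active by Polycomb and Trithorax group proteins.

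Several libraries stood apart from their labels and are described first. Total counts per library were 106566 to 1421547, with a median of 682424. Dpp4 transcripts did not exceed 47.3 CPM (counts per 1000000 counts of tested genes after scaling) in any ASC1 library. They were at least 49.2 CPM in every ASC2 library. These ranges did not overlap but nearly touched, so this 1 transcript followed the population labels without establishing them. Xist, the RNA of the inactive X chromosome, or the summed level of 4 Y-chromosome genes went against the labelled sex in 28 of the 58 libraries (Xist at 20 CPM or more in a library labelled male, or Y genes at 5 CPM or more in one labelled female). All 8 libraries labelled castrated male ASC1 were among them, with Xist at 51.9 to 118 CPM and Y genes at 0 to 4.72 CPM. In control female ASC1, libraries B, C, D, G and H had 16 to 34 reads of the Y-chromosome gene Ddx3y and 1 to 6 Xist reads. Libraries B, C and D of control male ASC1 had 10 to 36 Ddx3y reads and 0 Xist reads. Groups are therefore named below by their labels only. The study's methods mention Y-chromosome reads in control females, which they ascribe to a little male RNA, and point to Sult1e1 and C7, genes of higher level in males, as the measure by which those samples could be used. These genes separated the control groups by label without overlap. Sult1e1, which inactivates estrogen, had 22.7 to 154 CPM in the 15 control male libraries and 0 to 4.84 CPM in the 16 control female ones, and C7, a complement gene, had 122 to 1664 and 0 to 20.8 CPM. In castrated male ASC1 Sult1e1 was at 0 in all 8 libraries and C7 at 0 to 14.4 CPM. In the 3 ovariectomized female ASC1 libraries Sult1e1 was at 0 and C7 at 50.3 to 285 CPM, above all control females. Tcf21, a transcription factor of visceral fat stroma, was at 8.77 CPM or more in 23 libraries and at 1.58 CPM or less in 35, of which 34 had no read. The 23 comprised 3 of 7 libraries labelled control male ASC1, 6 of 8 castrated male ASC1, 2 of 8 castrated male ASC2, 6 of 8 control female ASC1, 2 of 8 control female ASC2 and 4 of 8 ovariectomized female ASC2. Wt1 was at 6.56 to 30.1 CPM in the 23 and at 0 to 1.83 CPM in the 35. Upk3b was at 0 to 66.6 and at 0 to 3.42 CPM. The study describes Tcf21 expression as specific for perigonadal fat. Whether the inguinal label holds for the 23 was not tested, so the depot is also given by label only. The 3 libraries labelled ovariectomized female ASC1 had summed fibroblast markers (Pdgfra, Col1a1, Dcn, Lum, Cd34 and Ly6a) of 47753 to 49533 CPM, against 4447 to 19348 CPM in all other libraries. In bulk libraries, fewer cells of a type and less RNA per cell cannot be told apart.

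Hoxc10, a posterior gene of cluster c, was the leading Hox gene of these cells. All Hox genes together took 5795 reads, which was 0.0145% of all reads, with 14 to 214 reads per library and a median of 94.5. A single read was worth 0.706 to 8.57 CPM depending on the library, so that most members had few reads in any 1 library. Cluster c held 46.0% of the Hox reads, cluster a 26.5%, cluster b 21.0% and cluster d 6.54%.

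Levels were compared between genes only per kilobase of their longest coding transcript. Mean Hoxc10 was 21.5 CPM per kb, followed by Hoxb7 with 8.20, Hoxa7 with 6.18, Hoxc8 with 5.41, Hoxa10 with 4.84 and Hoxb6 with 4.25 CPM per kb. Central members (numbers 6 to 8) and number 10 thus made up the upper part of the order. The highest member of cluster d was Hoxd11, with a mean of 1.81 CPM per kb. The posterior end of the clusters was nearly silent, since the 6 genes numbered 12 or 13 had 13 reads in all. Hoxb1 had 3 reads and Hoxd1 had none. The 22 members that were not tested had 0 to 110 reads over all libraries, with Hoxb2 (110 reads), Hoxc11 (77) and Hoxb9 (70) at the top. Of the 39 members, 9 share an annotated exon with another gene on the same strand and 10 with an antisense gene, and the sources do not state whether reads were assigned by strand. Hoxc10 and Hoxc5 overlap each other, and Hoxd10 and Hoxd11 both overlap Gm28309, a transcript that spans them, so the split of reads between such genes is uncertain.

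**Figure D1:**
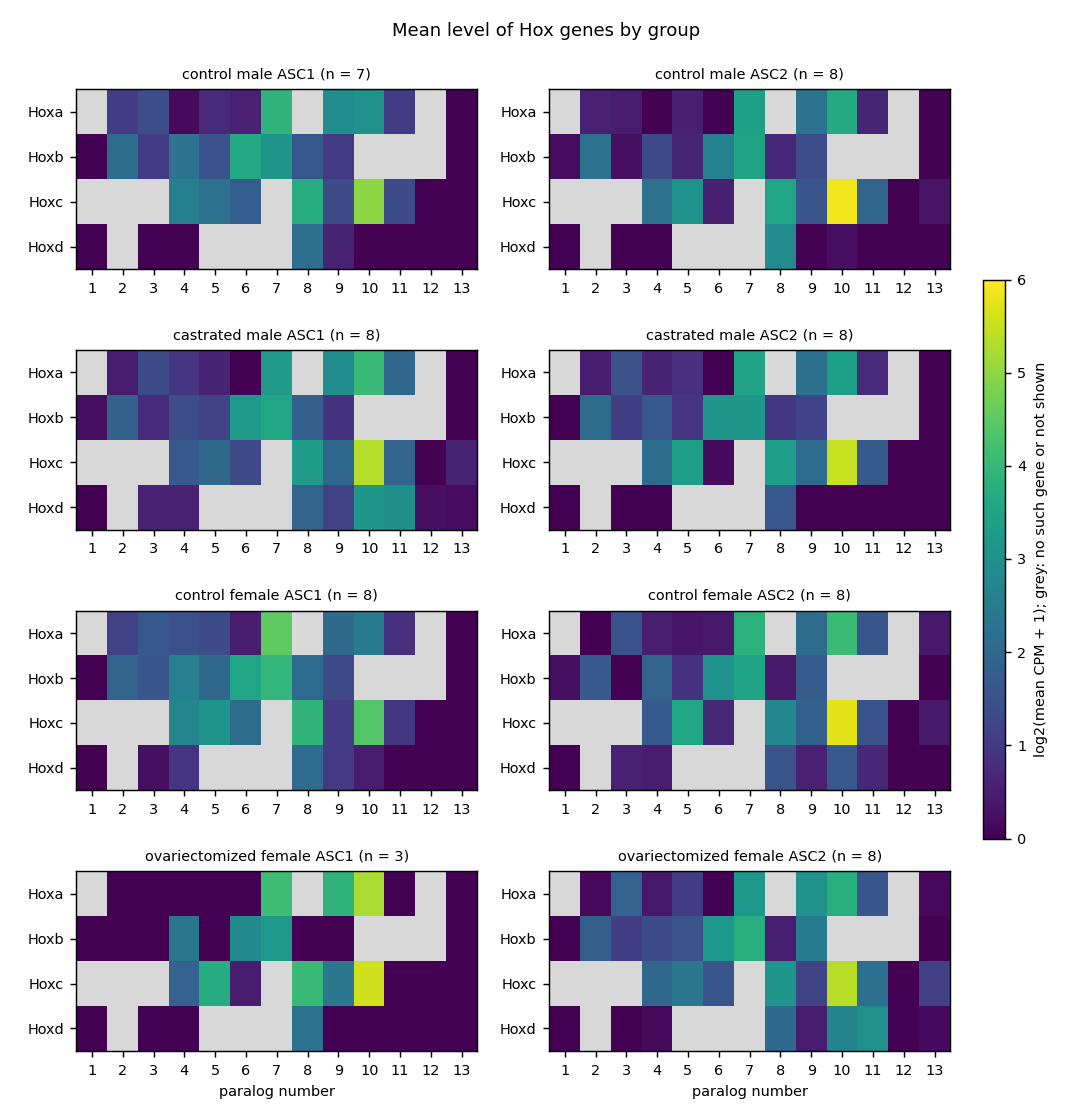
Mean level of Hox genes in the 8 labelled groups, with the cluster in rows, the paralog number in columns and colour for log2 of the mean CPM plus 1. Grey fields are numbers that the cluster does not have or that are not shown. Hoxc10 is the brightest field in 7 panels, and in control female ASC1 Hoxa7, at 21.9 CPM, is brighter than Hoxc10, at 20.1 CPM. Hoxd10 and Hoxd11 stand out from the rest of cluster d in castrated male ASC1 and ovariectomized female ASC2.

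Summed over all members, the group means lay between 128 and 171 CPM. By cluster, group means were 52.9 to 85.2 CPM for cluster c, 27.1 to 67.0 CPM for cluster a and 18.7 to 43.1 CPM for cluster b. Cluster d had 20.5 ± 13.7 CPM (SD, n = 8) in castrated male ASC1 and 16.3 ± 17.1 CPM (n = 8) in ovariectomized female ASC2, against means of 2.08 to 6.59 CPM in the other 6 groups. Within these sums, low and high numbers had different shares between groups. The summed level of Hox genes numbered 9 to 13 was 33.5 ± 30.9 CPM (SD, n = 8) in control female ASC1, with a lowest value of 3.33, a median of 19.0 and a highest of 86.2 CPM. In control female ASC2 it was 85.0 ± 9.20 CPM (n = 8), with a range of 71.3 to 96.4 CPM. Libraries of the first group thus ran from almost none to the level of the second. The same sum was 50.3 ± 32.9 CPM (n = 7) in control male ASC1, 80.9 ± 10.3 (n = 8) in control male ASC2, 88.2 ± 14.3 (n = 8) in castrated male ASC1 and 64.2 ± 35.4 CPM (n = 8) in castrated male ASC2. In ovariectomized females it was 101 ± 64.2 CPM (n = 3) in ASC1 and 85.6 ± 25.3 CPM (n = 8) in ASC2.

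The genes numbered 1 to 8 showed less spread. Their sum was highest in control female ASC1, with 107 ± 28.4 CPM (SD, n = 8) and a range of 65.6 to 151 CPM. The other 7 groups had means between 61.9 and 80.2 CPM.

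The lowest sums of high-numbered genes were those of 10 libraries in which Tcf21 (at least 5 CPM) and Y-chromosome transcripts (at least 20 CPM) occurred together. They were B, C and D of control male ASC1, B, C, D, G and H of control female ASC1, and I and J of castrated male ASC2. In these 10 libraries the genes numbered 9 to 13 summed to 3.33 to 23.5 CPM and took 2.74 to 17.1% of Hox expression. In the 13 libraries with Tcf21 and few Y transcripts the sum was 39.4 to 116 CPM and the share 37.5 to 70.8%. In the 35 libraries with Tcf21 under 5 CPM these values were 42.1 to 175 CPM and 36.2 to 78.6%. The range of the first 10 libraries therefore did not overlap with that of the others. Genes numbered 1 to 8 summed to 76.7 to 151 CPM in the same 10 libraries, against 46.6 to 99.3 CPM in the 13 and 25.7 to 88.2 CPM in the 35. The limits on Tcf21 and Y transcripts were set with the values known, so these ranges are a description without a test.

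**Figure D2:**
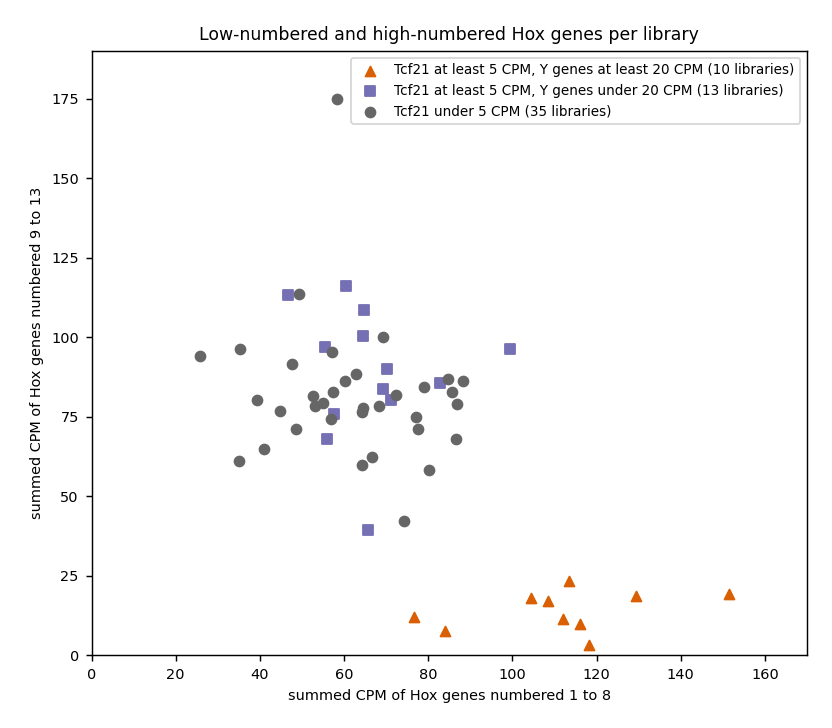
Summed CPM of Hox genes numbered 9 to 13 (vertical axis) against those numbered 1 to 8 (horizontal axis), with 1 point per library. Triangles mark the 10 libraries with Tcf21 of at least 5 CPM and Y-chromosome genes of at least 20 CPM, squares the 13 with Tcf21 and fewer Y transcripts, and circles the 35 with less Tcf21. The triangles lie between 3.33 and 23.5 CPM on the vertical axis, below all other points.

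The gene that led the code changed with these libraries. Per kilobase, Hoxc10 was the highest Hox gene in 46 of the 58 libraries, namely in all 35 with little Tcf21 and in 11 of the 13 with Tcf21 and few Y transcripts. Hoxd11 was highest in the other 2 of the 13. In the 10 libraries with Tcf21 and Y transcripts the highest was Hoxa7 (8 libraries) or Hoxb7 (2 libraries), both of the central paralog group 7. Hoxc10 had 1.67 to 11.9 CPM in these 10 libraries, below its 18.1 to 56.6 CPM in the 13 and its 29.7 to 85.4 CPM in the 35. Hoxa7 had 14.2 to 43.0 CPM in the 10 libraries, which overlapped with 3.33 to 24.6 CPM in the 13 and 0 to 26.9 CPM in the 35.

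**Figure D3:**
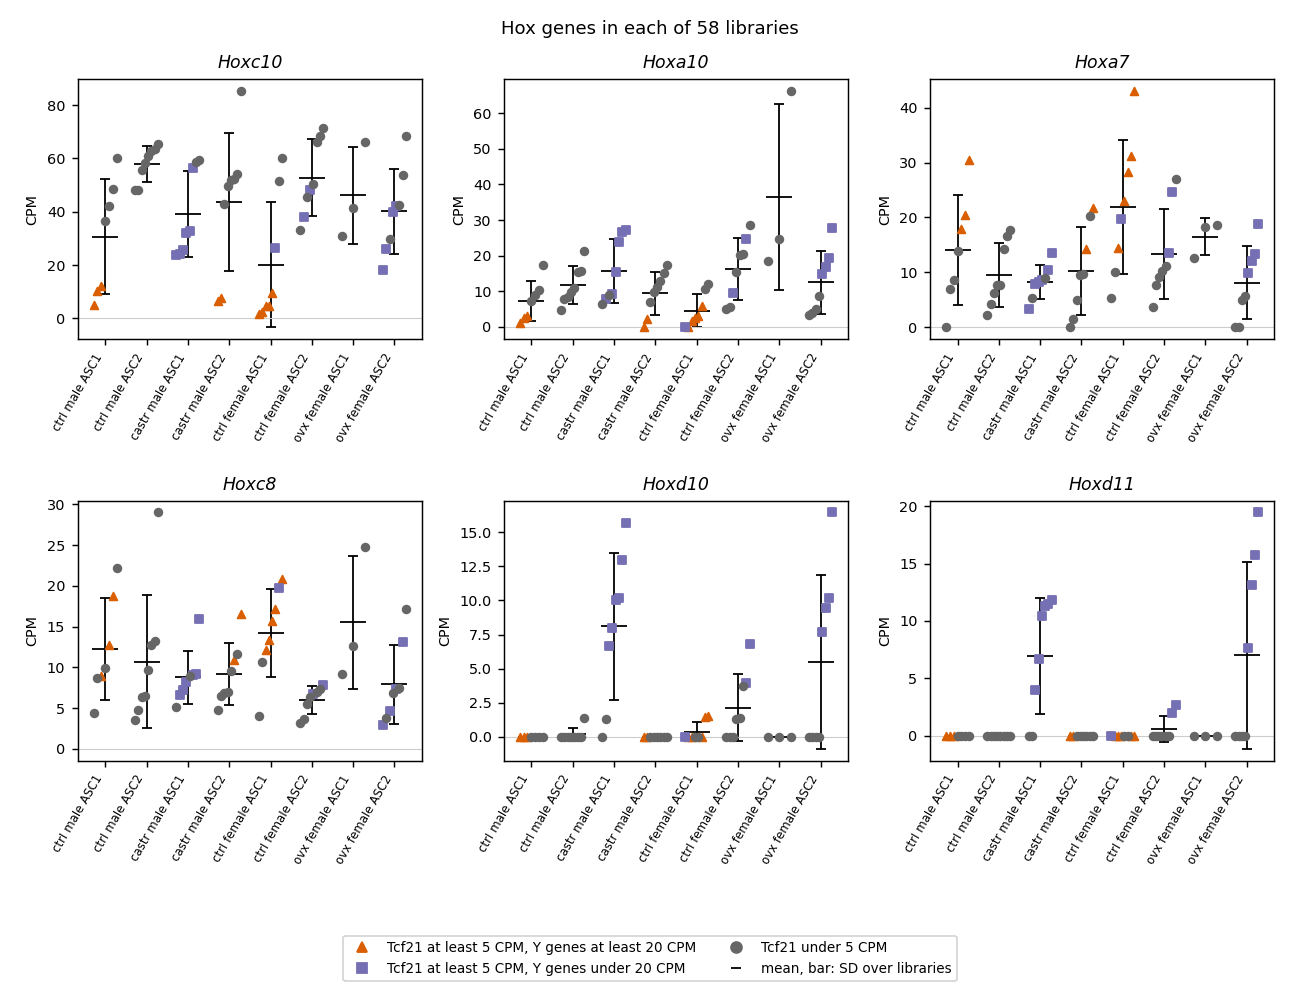
CPM of 6 Hox genes in every library by labelled group (castr, castrated; ovx, ovariectomized), with horizontal lines for the group mean and bars for the SD over libraries. Marks are as in the plot of summed levels. Hoxc10 splits control female ASC1 into 5 libraries at 1.67 to 9.65 CPM and 3 at 26.2 to 60.1 CPM, and Hoxd11 is above 0 only in squares.

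Castration was examined first, within each population. In ASC1, 2 of the 17 tested Hox genes were higher in castrated than in control males, and none was lower (edgeR quasi-likelihood test, adjusted p below 0.05). Among all 12464 genes tested, 1.06% were higher and 1.3% lower. Both were posterior genes of cluster d, Hoxd10 and Hoxd11, which are known for patterning the limb and the lumbosacral level. The 7 tested genes numbered 9 to 13 all had fold changes above 0, with a median log2 fold change of 0.99 that is the same with Hoxd10 and Hoxd11 at their lower bounds, and 8 of the 10 numbered 1 to 8 had fold changes below 0, with a median of -0.36, beside a median of -0.01 over all genes. No member numbered 1 to 8 passed the threshold.

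Hoxd10 had no read in any of the 7 libraries of control male ASC1. In castrated male ASC1 it had a lowest value of 0, a median of 9.01 and a highest of 15.7 CPM, with reads in 7 of 8 libraries, and its mean was 8.10 ± 5.40 CPM (SD). Against a floor of 3 reads over the control libraries this was at least 14.99-fold higher (adjusted p = 0.0012). Hoxd11 was likewise without a read in the controls, and in castrated male ASC1 it had 0 to 11.8 CPM with a median of 8.56, a mean of 6.96 ± 5.08 CPM and reads in 6 of 8 libraries, which was at least 12.9-fold higher (adjusted p = 0.0115). The libraries with reads of both genes were K to P, while I and J had none of Hoxd11, and J alone of these 2 had Hoxd10, at 1.28 CPM. Libraries K to P were also the 6 of this group with Tcf21, at 27.95 to 79.1 CPM. Leaving out libraries with Tcf21 at 10 CPM or more kept 2 castrated and 4 control libraries, in which 0 Hox genes passed by edgeR and 0 genes of any kind were called. Without the libraries whose sex transcripts went against the label, no castrated male ASC1 library remained. By DESeq2, which gave no adjusted p for either gene, the count was 0, with all libraries kept.

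Across all 58 libraries, reads of Hoxd10 and Hoxd11 shared 1 set of libraries. Hoxd11 had reads in 12 libraries, and all 12 also had Hoxd10 reads, Tcf21 at 27.95 CPM or more and Xist at 51.9 CPM or more. They were K to P of castrated male ASC1, C and D of control female ASC2 and I to L of ovariectomized female ASC2. Of the 99.1 reads of Hoxd10, 90.1 lay in these 12 libraries and 9 in 7 other libraries. Hoxa11, their neighbour in number on another chromosome, had 5 or more reads in 6 libraries, all of them with Tcf21 and Xist. Gm28309, the spanning transcript, had 27.9 reads in 9 libraries, all within the 12. The shared pattern was noticed in these values and was not tested, and neither was the part of Tcf21-expressing cells in it.

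The sequences upstream of Hoxd10 and Hoxd11 are shown because these genes appeared in the same libraries, followed by Hoxa10 and Hoxb8, which are described further on. Each is the 120 bases before an annotated start, from RefSeq on GRCm38.p6. Capitals mark matches, on either strand, to TATAAA, which is bound by TBP, to CCAAT, which is bound by NF-Y, to TTTATG, a site of caudal-type factors, to AGGTCA, a site of nuclear receptors, or to TGATNNAT, a site of Hox proteins with PBX.
Hoxd10, chr2:74691771-74691890, plus strand: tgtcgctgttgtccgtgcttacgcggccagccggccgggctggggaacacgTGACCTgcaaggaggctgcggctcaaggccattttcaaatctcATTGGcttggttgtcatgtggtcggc
Hoxd11, first start, chr2:74679438-74679557, plus strand: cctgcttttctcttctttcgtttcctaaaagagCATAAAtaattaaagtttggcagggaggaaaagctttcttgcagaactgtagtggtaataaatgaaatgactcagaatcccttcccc
Hoxd11, second start, chr2:74682203-74682322, plus strand: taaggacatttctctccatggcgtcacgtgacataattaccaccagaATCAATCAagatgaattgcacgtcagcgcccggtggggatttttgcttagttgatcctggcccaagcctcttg
Hoxa10, first start, chr6:52240855-52240974, minus strand: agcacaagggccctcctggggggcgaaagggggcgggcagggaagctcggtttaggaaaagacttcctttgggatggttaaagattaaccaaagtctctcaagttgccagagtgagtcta
Hoxa10, second start, chr6:52234940-52235059, minus strand: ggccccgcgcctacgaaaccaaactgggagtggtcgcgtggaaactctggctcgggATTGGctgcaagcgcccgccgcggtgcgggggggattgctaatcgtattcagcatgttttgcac
Hoxb8, chr11:96281785-96281904, plus strand: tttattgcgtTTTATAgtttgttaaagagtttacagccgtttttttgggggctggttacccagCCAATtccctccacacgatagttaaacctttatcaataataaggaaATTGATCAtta

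Matches to these motifs were scattered over the windows. Upstream sequence was at hand for 22 of the 39 members in 24 windows, and motif counts refer to the 250 bases before the start. CCAAT was found in 14 of the 24 Hox windows, against 33.8% of all 32851 windows of the same length, and TATAAA in 4, against 12.4%. TTTATG was found in 5 windows (10.8% of all), AGGTCA in 6 (14.02% of all) and TGATNNAT in 4 (7.68% of all). None of the 5 was present in both Hoxd10 and the second Hoxd11 window. Each of these windows held 20 CpG dinucleotides, while the first Hoxd11 window held 2, the lowest number of the Hox windows. The median was 12.5 in the Hox windows and 6 in all windows. Such matches are a description of letters and no evidence of binding.

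In ASC2, none of the 17 Hox genes passed the threshold between castrated and control males by edgeR, and 2 had an unadjusted p below 0.05, Hoxa3 and Hoxd8. DESeq2 and limma voom also called 0. Among all genes 2.65% were higher and 4.32% lower in castrated males. Fold changes of the tested members lay on both sides of 0 (8 above, 8 below, and Hoxd11 without reads in either group), with a median of 0.00 over the members and 0.00 over all genes. Hoxc10 had a lowest value of 6.37, a median of 50.6 and a highest of 85.4 CPM in castrated male ASC2, and 48.0, 59.5 and 65.3 CPM in control male ASC2. Its 2 lowest values were libraries I and J, the 2 with Tcf21, and the other 6 castrated libraries lay at 42.8 to 85.4 CPM, on both sides of the controls.

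By label, the castration effect differed between ASC2 and ASC1 for 1 member. All 8 castrated male ASC1 libraries in this difference had sex transcripts against their label. Tcf21 was present in 6 of these 8 and in 0 of 8 control male ASC2 libraries. The part of either in the difference was not tested. Hoxd10 had a fitted difference of effects of -6.87 ± 1.96 on the log2 scale (SE, adjusted p = 0.0461), beside 1.53% of all genes with a positive and 0.883% with a negative difference. The size for Hoxd10 depends on groups without reads and is not a measured fold. By DESeq2 the adjusted p was 0.0672, and without the Tcf21 libraries no member passed. Differences were below 0 for all 7 tested genes numbered 9 to 13, of which Hoxd10 and Hoxd11 rest on groups without reads, and above 0 for 8 of the 10 numbered 1 to 8, with a median of 0.62.

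Ovariectomy in ASC1 compared 3 libraries with 8, and 2 Hox genes were higher and none lower, among 12.7% of all genes higher and 22.1% lower. The median log2 fold change over all genes was -0.34 here, so that changes are relative to a shifted background, and a call of 2 in 17 lay below the share of all genes called. Hoxa10 and Hoxa9 are neighbouring genes of cluster a with roles in the posterior axis and the reproductive tract. Hoxa10 had 66.3, 18.4 and 24.8 CPM in libraries L, N and P of ovariectomized female ASC1. In control female ASC1 it had 0, 2.77 and 12.02 CPM as lowest, median and highest values, so all 3 libraries lay above all 8 controls. The log2 fold change was 2.99 ± 0.63 (SE, adjusted p = 0.000151). Hoxa9 had 29.7, 0 and 12.4 CPM in L, N and P, and 0, 1.99 and 10.02 CPM in the controls, which overlapped. Its log2 fold change was 2.19 ± 0.78 (adjusted p = 0.0242), and it did not pass by limma voom with a block correlation (2.08, adjusted p = 0.0508).

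Both calls depended on library L, and without it 0 Hox genes passed by edgeR (Hoxa10, 2.04, adjusted p = 0.118; Hoxa9, 0.61, adjusted p = 0.79). Without the Tcf21 libraries, which left 2 controls, Hoxa10 remained higher by 1.86 on the log2 scale (adjusted p = 0.0356), while Hoxa9 had 0.96 (adjusted p = 0.46). Leaving out the libraries against their sex label kept the same 2 controls (E and F) and the same 3 ovariectomized libraries. Hoxa10 then had 1.84 (adjusted p = 0.0976), so this is no separate check and differs only through the other libraries of the fit. Hoxc10 had 30.96 to 66.3 CPM in ovariectomized female ASC1 and 1.67 to 60.1 CPM in the controls, with a log2 fold change of 1.31 ± 0.59 that did not pass (adjusted p = 0.0766). Hoxb8 was without a read in the 3 ovariectomized libraries and had a mean of 3.29 ± 3.27 CPM in the controls, which was at least 1.38-fold lower after ovariectomy and did not pass (adjusted p = 0.0647).

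In ASC2, ovariectomy gave 0 Hox genes past the threshold by edgeR and 0 by DESeq2, with 3 at an unadjusted p below 0.05 (Hoxc5, Hoxd10 and Hoxd11). Among all genes, 0.65% were higher and 1.44% lower. Hoxd11 was nearest, with 0, 3.84 and 19.5 CPM as lowest, median and highest values in ovariectomized female ASC2 and 0, 0 and 2.71 CPM in the controls. Libraries I to L had 7.68 to 19.5 CPM, above every control, and M to P had none, so that 4 of the 8 libraries lay with most controls. The log2 fold change was 3.28 ± 0.92 (adjusted p = 0.0539), and limma voom with a replicate block called 1 Hox gene in this comparison. Libraries I to L were those with Tcf21, at 30.4 to 50.9 CPM, and M to P had no Tcf21 read. M to P also held most of the epithelial transcripts of this group, whose summed markers (Epcam, Krt18, Krt8, Krt14 and Krt5) had a range of 9.88 to 1079 CPM. The part of either in the Hox values was not tested.

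No Hox gene passed the threshold between control males and control females, in ASC1 or in ASC2, by edgeR, DESeq2 or limma voom. In ASC1, 0.136% of all genes were higher and 0.152% lower in males, and 1 member had an unadjusted p below 0.05. That member was Hoxb7, with 7.72 ± 3.90 CPM (SD, n = 7) in males and 14.7 ± 4.89 CPM (n = 8) in females and a log2 fold change of -0.91 ± 0.33 (SE, adjusted p = 0.373). In ASC2, 3.63% of all genes were higher and 2.87% lower in males, and 3 members had an unadjusted p below 0.05 (Hoxa3, Hoxd8 and Hoxd10). Hoxd8 had 6.41 ± 4.13 CPM in males and 1.96 ± 2.19 CPM in females (n = 8 each), with a log2 fold change of 1.52 ± 0.70 (adjusted p = 0.196). The sex difference did not differ between ASC2 and ASC1 for any member past the threshold (adjusted p of 0.426 or more, edgeR, and 0 by DESeq2 and by limma voom), beside 0.0642% of all genes in each direction, although all 7 tested genes numbered 9 to 13 had a difference below 0, Hoxd10 and Hoxd11 among them with groups without reads. A single member, Hoxa11, had an unadjusted p below 0.05 there. Since 8 of 15 control male libraries and 12 of 16 control female libraries had Xist or Y transcripts against their label, these comparisons concern labels, to which the levels of Sult1e1 and C7 given above conform in all control libraries. Without those libraries 1 member was lower in males in ASC1 and none in ASC2. In ASC1 this compared 3 male libraries (B, C and D), all with Tcf21, with 2 female libraries (E and F) without a Tcf21 read. In ASC2 it compared 4 male libraries without a Tcf21 read with 2 female libraries (C and D), both with Tcf21. The sex label and Tcf21 cannot be told apart in this setting.

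Within control females, 4 Hox genes differed between ASC2 and ASC1, 2 in each direction, among 3.54% of all genes higher and 2.58% lower in ASC2. The higher genes were both of paralog group 10 and the lower ones both of group 8. Hoxc10 had a lowest value of 33.3, a median of 49.3 and a highest of 71.5 CPM in ASC2, and 1.67, 7.16 and 60.1 CPM in ASC1. The groups overlapped, since 3 ASC1 libraries (A, E and F) lay at 26.2 to 60.1 CPM. The log2 fold change was 1.38 ± 0.43 (SE, adjusted p = 0.0406). Hoxa10 had 5.09, 17.8 and 28.5 CPM in ASC2 and 0, 2.77 and 12.02 CPM in ASC1, again with overlap, and a log2 fold change of 1.68 ± 0.53 (adjusted p = 0.0415).

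Hoxc8, which takes part in patterning the thoracic level, was lower in ASC2. It had 3.17, 6.58 and 7.87 CPM as lowest, median and highest values there, and 4.01, 14.5 and 20.8 CPM in ASC1, where only library F was below the highest ASC2 value. Its log2 fold change was -1.17 ± 0.36 (adjusted p = 0.0339), and without the count filter it did not pass (adjusted p = 0.144). Hoxb8 had 2 reads in a single ASC2 library and 18 reads in 5 of 8 ASC1 libraries, a level of 0.339 ± 0.96 against 3.29 ± 3.27 CPM (log2 fold change -2.83 ± 0.88, adjusted p = 0.0389). It did not pass without the count filter (adjusted p = 0.0936), and DESeq2 gave no adjusted p for it. Of the members numbered 1 to 8, 9 of 10 had fold changes below 0 with a median of -0.66, and of those numbered 9 to 13, 6 of 7 had fold changes above 0 with a median of 1.68 (1.53 without Hoxd11, which had no ASC1 read), beside a median of 0.00 over all genes.

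None of these 4 differences passed without the libraries with Tcf21, which were 6 of 8 in ASC1 and 2 of 8 in ASC2. By edgeR 0 Hox genes were then called, and Hoxc10 had a log2 fold change of 0.02 (adjusted p = 0.995), Hoxa10 of 0.51 (adjusted p = 0.798), Hoxc8 of -0.46 (adjusted p = 0.846) and Hoxb8 of -4.10 (adjusted p = 0.165), with 2 ASC1 and 6 ASC2 libraries. Without the libraries against their sex label, 2 in each population were left, 0 genes passed, and Hoxc10 turned to -0.39 (adjusted p = 0.848). The 2 ASC2 libraries left were C and D, both with Tcf21. The 2 ASC1 libraries left were E and F, without a Tcf21 read. Population and Tcf21 cannot be told apart in this setting. The summed visceral stroma and mesothelium markers were 42.8 to 174 CPM in ASC1 and 53.7 to 225 CPM in ASC2 of control females, although the defining markers Tcf21 and Wt1 were at 0 in the median ASC2 library.

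Control males had 0 Hox genes past the threshold between ASC2 and ASC1 by edgeR and 0 by DESeq2, with 3 at an unadjusted p below 0.05 (Hoxa3, Hoxb6 and Hoxc10), among 6.88% of all genes higher and 5.3% lower in ASC2. limma voom with a replicate block called 2. Hoxc10 had 48.0, 59.5 and 65.3 CPM in ASC2 and 5.09, 36.5 and 60.2 CPM in ASC1, where libraries B, C and D, the 3 with Tcf21, lay at 5.09 to 11.9 and the other 4 at 36.5 to 60.2 CPM. Its log2 fold change was 0.90 ± 0.42 (SE, adjusted p = 0.156), which did not pass. Hoxb6 had 5.19 ± 4.21 CPM (SD) in ASC2 and 11.5 ± 4.69 CPM in ASC1 (log2 fold change -1.05 ± 0.40 (SE), adjusted p = 0.0748).

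In castrated males, 2 Hox genes were lower and none higher in ASC2, among 4.62% of all genes lower and 4.47% higher. They were Hoxd10 and Hoxd11, which had no read in any of the 8 ASC2 libraries and the ASC1 values given above. The differences were at least 14.9-fold for Hoxd10 (adjusted p = 0.00027) and at least 12.8-fold for Hoxd11 (adjusted p = 0.00306). By DESeq2 Hoxd10 passed (adjusted p = 0.00113) and Hoxd11 did not (adjusted p = 0.193). Without the Tcf21 libraries, which left 2 ASC1 libraries, 0 Hox genes were called by edgeR. This comparison shares its ASC1 libraries with that of castration in ASC1. All 8 ASC1 libraries had Xist transcripts and almost no Y transcripts, while the 8 ASC2 libraries had Y genes at 55.9 to 100.1 CPM and Xist at 0 to 7.99 CPM. The population and these sex transcripts cannot be told apart here. Hoxa11 had 2.97 ± 2.51 CPM in ASC1 and 0.641 ± 1.81 in ASC2 (SD, n = 8 each) and did not pass (adjusted p = 0.167).

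In ovariectomized females, 2 Hox genes were higher and 1 lower in ASC2, among 22.5% of all genes higher and 12.9% lower. Hoxd10 and Hoxd11 had no read in the 3 ASC1 libraries and reads in 4 of 8 ASC2 libraries, and their differences were at least 2.29-fold and at least 2.93-fold (adjusted p = 0.0340 and 0.0470). Neither passed without library L, N or P of ASC1, and DESeq2 gave no adjusted p for either gene. Hoxa10 was lower in ASC2, with 3.43, 11.7 and 27.8 CPM as lowest, median and highest values against 18.4 to 66.3 CPM in ASC1 (log2 fold change -1.54 ± 0.58, adjusted p = 0.0338). Without library L it was -0.58 (adjusted p = 0.667), and without the Tcf21 libraries, which left 4 of 8 ASC2 libraries, it was -3.17 (adjusted p = 0.000384). Hoxa10 was thus higher in ASC2 of control females and lower in ASC2 of ovariectomized females, and the difference between these was not tested. The median over all genes was 0.37 in this comparison.

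**Figure D4:**
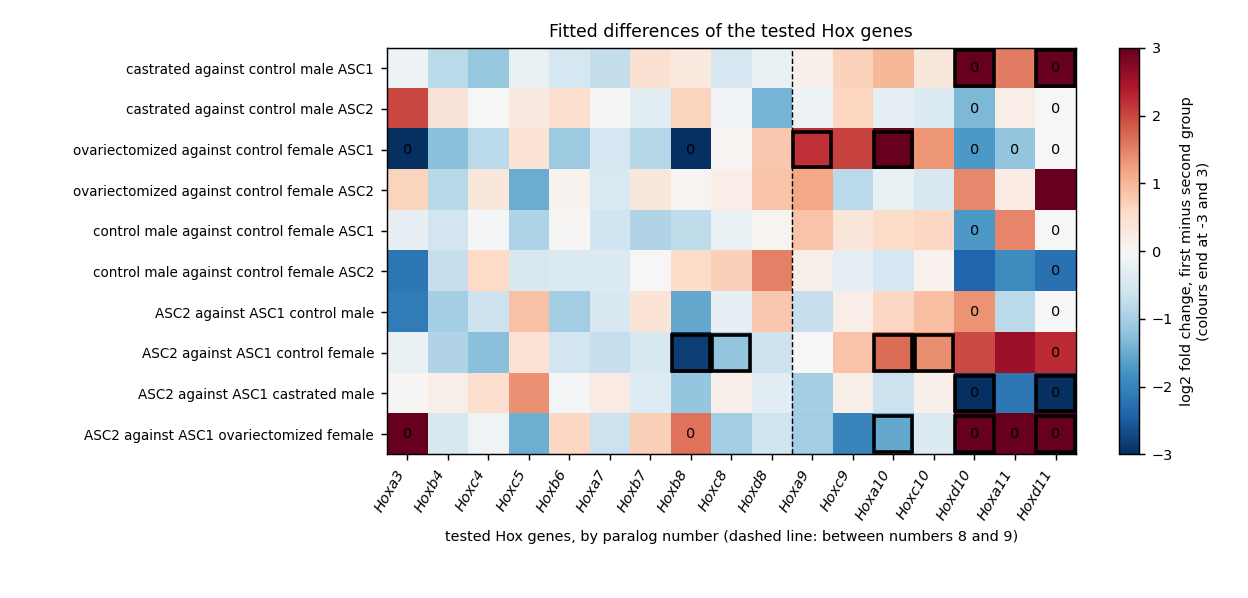
Fitted log2 fold changes of the 17 tested Hox genes (columns, by paralog number) in 10 comparisons (rows), as first minus second group, with colours that end at -3 and 3. Black frames mark an adjusted p below 0.05 and a 0 marks a pair in which at least 1 group had no read, where the size of the fold is not measured. Frames are found in 5 of the 10 rows, and 6 of the 13 frames are on Hoxd10 or Hoxd11.

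Noncoding transcripts of the Hox clusters were mostly near the limit of detection. Of 14 listed, 11 had reads and 1, Hoxa11os, passed the filter for testing. Hoxa11os is transcribed antisense to Hoxa11, and reads of the pair may be mixed. It had 7.38 CPM as a mean in castrated male ASC1 and 0.497 CPM in control male ASC1, and was higher with a log2 fold change of 3.45 ± 0.88 (adjusted p = 0.0183), and it was lower in castrated male ASC2, with 1.32 CPM, than in ASC1 (-2.58 ± 0.79, adjusted p = 0.026). Of its 156 reads, 118 lay in the 10 libraries with 5 or more, of which 9 had Tcf21 and Xist. Hotair, a transcript of the posterior part of cluster c, had 6 reads in 5 libraries, and Hottip, of the posterior end of cluster a, had 2 reads in all.

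The lists of Hox cofactors and regulators were counted in the same comparisons. Of the 8 tested PBX, MEIS and PKNOX genes, 0 passed for castration in either population, 0 for ovariectomy in ASC2 and 0 between control males and females, by edgeR. In ovariectomized against control female ASC1, 3 were lower (Meis1, Meis3 and Pbx3) and none higher, beside 22.1% of all genes lower and 12.7% higher, with a median of -0.60 beside -0.34 over all genes. Meis1, a partner of posterior Hox proteins, had a mean of 10.99 against 63.1 CPM there (log2 fold change -2.15 ± 0.57, adjusted p = 0.00238). In castrated males 2 of the 8 were lower in ASC2 than in ASC1 and 0 higher, beside 4.62% and 4.47% of all genes. Meis2 was 1 of the lower ones, with 12.7 against 32.7 CPM (log2 fold change -1.38 ± 0.39, adjusted p = 0.0148). In ovariectomized females 3 of the 8 were higher in ASC2 and 0 lower, beside 22.5% and 12.9% of all genes.

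Of the 24 Polycomb, Trithorax and related genes, all were tested. None passed for castration in ASC1. In castrated against control male ASC2, 1 of the 24 was higher and 1 lower, beside 2.65% and 4.32% of all genes. Kdm6b, an enzyme that removes a Polycomb mark, was lower, with a mean of 17.7 against 85.9 CPM (-2.19 ± 0.43, adjusted p = 0.000511). Wdr5, a subunit of Trithorax-type complexes, was higher, with 31.7 against 17.5 CPM (0.86 ± 0.28, adjusted p = 0.0492). In ovariectomized against control female ASC1, 3 were higher and 6 lower, which is near the 12.7% and 22.1% of all genes, with a median of -0.71. Kmt2a, a methyltransferase that maintains Hox expression, had 2.67 against 21.3 CPM (-2.70 ± 0.57, adjusted p = 0.00016), and Ezh1, a Polycomb methyltransferase, had 56.4 against 19.2 CPM (1.62 ± 0.36, adjusted p = 0.000347).

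Retinoic acid is a classical inducer of Hox genes, and of 17 listed genes of this and other upstream signals 13 were tested. Between ASC2 and ASC1 the retinal dehydrogenases differed among themselves. In control females 2 of the 13 were higher in ASC2 and 1 lower, beside 3.54% and 2.58% of all genes. Aldh1a2 was lower, with 14.9 against 104 CPM (-2.68 ± 0.76, adjusted p = 0.0197), while Aldh1a1 and Aldh1a3 were higher (1.13 ± 0.28 and 1.38 ± 0.35, adjusted p = 0.006 and 0.00784). In control males the same 3 genes went the same way, with Aldh1a2 at 0.582 against 30.9 CPM (-5.28 ± 1.26, adjusted p = 0.00287). There 3 of the 13 were higher and 1 lower, beside 6.88% and 5.3% of all genes. Libraries with Tcf21 were 6 of 8 in ASC1 and 2 of 8 in ASC2 of control females. In control males they were 3 of 7 in ASC1 and 0 of 8 in ASC2. The part of these libraries in the values of the retinal dehydrogenases was not tested. Castration gave 1 lower gene in ASC1, Aldh1a3, with 4.83 against 20.5 CPM (-2.25 ± 0.50, adjusted p = 0.00478), beside 1.3% of all genes lower. It gave none in ASC2. In ovariectomized against control female ASC1, 2 were higher and 5 lower, beside 12.7% and 22.1% of all genes. Cyp26b1, which breaks down retinoic acid, was among the higher ones, with 82.5 against 3.48 CPM (4.33 ± 0.66, adjusted p = 5.87e-07).

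Other regional transcription factors were tested for 9 of 18 listed genes. Meox1, a homeobox gene of paraxial mesoderm, was lower in castrated than in control male ASC2, with 11.8 against 37.2 CPM (-1.71 ± 0.49, adjusted p = 0.0239). It was the 1 call of the list there, beside 4.32% of all genes lower. Meox1 was also 1 of 2 listed genes higher in control males than in control females in ASC2 (2.25 ± 0.51, adjusted p = 0.00316), beside 3.63% of all genes. Tbx5, which marks the anterior trunk and forelimb, was higher in ASC2 than in ASC1 of control females, with 12.6 against 0.902 CPM (3.39 ± 0.74, adjusted p = 0.00131). Emx2, a homeobox gene of the urogenital system and the limb girdles, was higher there too, with 23.97 against 10.5 CPM (1.47 ± 0.43, adjusted p = 0.0269). These 2 were the calls of the list in that comparison, beside 3.54% of all genes higher. Castration in ASC1 and ovariectomy in ASC2 gave 0 calls in this list by edgeR. Ovariectomy in ASC1 gave 3 higher and 0 lower genes, beside 12.7% and 22.1% of all genes. Between ASC2 and ASC1 of ovariectomized females 2 were higher and 4 lower, beside 22.5% and 12.9% of all genes.

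Markers of other cell types were also called in the comparisons in which Hox genes were called, and their part in the Hox values was not tested. In castrated against control male ASC1, the visceral stroma and mesothelium list had 3 of 9 tested genes higher (Msln, Upk3b and Lrrn4) and none lower, and its sum was 8.94 to 269.6 CPM in castrated and 12.2 to 78.9 CPM in control libraries. Of the ASC2 markers Dpp4, which defines the sort, was higher in castrated ASC1, with a mean of 26.2 against 6.80 CPM (log2 fold change 1.87 ± 0.48, adjusted p = 0.0195). Macrophage and leukocyte markers had 2 lower, fibroblast markers 2 lower and Y-chromosome genes 2 lower, while the endothelial, mural, epithelial and muscle lists had 0 calls by edgeR. Among all genes, 1.06% were higher and 1.3% lower in this comparison. In ovariectomized against control female ASC1, all 6 fibroblast markers were higher, and 3 epithelial, 2 endothelial and 1 macrophage markers were lower, with mural markers split into 2 higher and 2 lower. This was beside 12.7% of all genes higher and 22.1% lower, and the 1 of 4 tested macrophage and leukocyte markers was near that share. The ASC2 markers Pi16 (207 against 26.8 CPM) and Cd55 (86.9 against 26.8 CPM) and the ASC1 marker Fabp4 (226 against 81.5 CPM) were higher there, and the Y-chromosome genes Ddx3y and Eif2s3y were lower. Epithelial markers were listed at 0 in all 3 ovariectomized libraries and summed to 39.4 to 743.9 CPM in the controls. Between ASC2 and ASC1 of control females, the 4 ASC2 markers (Dpp4, Pi16, Cd55 and Wnt2) and 3 fibroblast markers were higher, 3 epithelial and 1 endothelial markers were lower, and the visceral list had 1 gene higher (Krt19) and 1 lower (Upk1b). Of all genes, 3.54% were higher and 2.58% lower there. The 3 ASC1 markers (Icam1, Col4a1 and Fabp4) had 0 calls there by edgeR and 1 lower gene each in castrated males (Icam1) and ovariectomized females (Fabp4). Between ASC2 and ASC1 of castrated males, 3 ASC2 markers (Dpp4, Pi16 and Wnt2), 3 macrophage and leukocyte markers (Cd68, with 246 against 69.6 CPM, Ptprc and Cd14), the fibroblast marker Cd34, Krt19 and all 4 Y-chromosome genes were higher. Lower there were Tcf21, Lrrn4 and Msln of the visceral list, the mural markers Tagln and Acta2, and Krt8. The shares of all genes were 4.47% higher and 4.62% lower. Between ASC2 and ASC1 of ovariectomized females, Dpp4 and Pi16, 4 epithelial markers (Krt18, Krt14, Krt8 and Krt5), Cdh5, Cd68, Tagln and Acta2 were higher, while all 6 fibroblast markers, Kcnj8 and Abcc9 were lower, and the visceral list had 0 calls by edgeR. This was beside 22.5% of all genes higher and 12.9% lower. Cdh5 and Cd68, each 1 of 4 tested genes of its list, were near the first share. Of the 4 skeletal muscle markers 1 passed the filter, and it was higher in ASC2 of both control and ovariectomized females.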

How the data were processed

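Estimated counts per gene were deposited as 1 table of 58 libraries. Per the labels and the submitters' processing notes, the authors quantified reads with Salmon 1.9.0 on GRCm39 and used STAR 2.7.10a, FastQC 0.11.9 and MultiQC 1.12 for quality control. Of the values above 0, 14.99% were not whole, and counts were rounded before testing. CPM is the count per 1000000 counts of tested genes in the library after TMM scaling. Symbols were matched to 52029 of 56953 identifiers, and all sample columns were used. Depth per library was 106566 to 1421547 counts, and counting error at a few reads is large.

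The 12464 genes that reached 5 reads in more than 3 libraries were tested with edgeR 4.0.16 (R 4.3.3) by the quasi-likelihood test with TMM scaling, 1 coefficient per group over all 58 libraries and Benjamini-Hochberg adjustment over all genes tested, at a threshold of 0.05. The biological coefficient of variation was 35.6%. The fit was tested on simulated data. Alternatives were DESeq2 1.42.0, limma 3.58.1 (voom), RLE size factors, no filter, the replicate letter as a block, and leaving out libraries. Groups without reads were set to a floor of 3 reads over the group. Tables and figures used Python 3.11.15, pandas 2.3.3 and matplotlib 3.10.9.

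No 2 libraries of a group were duplicates (lowest chi-square per gene 1.53 over 192 pairs). The text names every Hox gene past the threshold in a comparison, those of highest level, and genes of the fixed lists; other members, such as those nearest the threshold, were named after their values were seen. Results on a few genes that this rule would name are not reported here. The members and lists were chosen with earlier results of these data known. Exon overlaps were taken from the Gencode vM21 annotation, and promoters from RefSeq on GRCm38.p6, not the build of the counts.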

Additional observations from a re-analysis of the deposited data

Results flagged for a closer look

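In 6 of 70 sets of values (a Hox gene or sum in a group of 4 to 10 libraries) a single library lay far from the others. The rate by chance is not known for values of so few reads, so this count is a description only. Hoxb7 had 16.6 CPM in library J of castrated male ASC2, with the next library at 8.77 CPM, and 26.1 CPM in library F of control female ASC1, with the next at 15.6 CPM. Hoxc5 had 11.9 CPM in library D of control male ASC1 (next 5.09 CPM). Hoxc8 had 29.0 CPM in library D of control male ASC2 (next 13.2 CPM) and 16.0 CPM in library P of castrated male ASC1 (next 9.16 CPM). The sum of Hox genes numbered 1 to 8 was 25.7 CPM in library P of ovariectomized female ASC2, where the next lowest was 57.6 CPM, and this library was the shallowest of all with 106566 counts.

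By label, the castration effect on Hoxd10 differed between ASC2 and ASC1 by -6.87 on the log2 scale (adjusted p = 0.0461, edgeR). By DESeq2 the difference was -5.51 (adjusted p = 0.0672). Hoxd10 reads occurred in 7 of 8 libraries of castrated male ASC1, in 1 of 8 of control male ASC2 and in none of the other 2 groups, so the size of the difference is not measured. All 8 castrated male ASC1 libraries had sex transcripts against their label, and the part of this in the difference was not tested.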

How the results depend on the processing

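Counts of called Hox genes stayed within 1.5 times the value given for 60 combinations of comparison and alternative and moved further for 34. With DESeq2 they were 1 for ASC2 against ASC1 in castrated males and 1 in ovariectomized females, 0 for castration in ASC1 and 0 for its difference between populations. Without the count filter, which tests 36 members, 1 gene was called for ASC2 against ASC1 in control males and 1 in ovariectomized females, 1 for castration in ASC2, 1 for sex in ASC2, 1 for ovariectomy in ASC2 and 1 for the sex difference between populations, and in control females Hoxc8 and Hoxb8 did not pass. The cause was not tested. Without libraries against their sex label the counts for ASC2 against ASC1 were 0 in control females, 2 in control males and 1 in ovariectomized females, with 1 for sex in ASC1 and 0 for ovariectomy in ASC1, and Hoxc10 reversed to -0.39 in control females. In each comparison between control groups under this setting, 1 side had Tcf21 in all its libraries and the other in none, so these values cannot be separated from Tcf21. Without libraries with Tcf21 at 10 CPM or more, or at 5 CPM or more, a limit chosen after seeing the data, the counts were 0 for ASC2 against ASC1 in castrated males, 0 in control females and 1 in ovariectomized females, 0 for castration in ASC1, 0 for its difference between populations and 1 for ovariectomy in ASC1. These settings keep fewer libraries. Leaving out 1 of the 3 libraries of ovariectomized female ASC1 gave 0 to 4 genes for ovariectomy and 0 to 2 for ASC2 against ASC1, with 0 in both without library L.

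The deviations of ASC1 and ASC2 libraries with the same letter and sex label had correlations of -0.169 to 0.268 over 26 pairs, 5 of them over 0.1, so the values did not settle whether a letter marks 1 mouse. With the letter as a block, edgeR called 2 genes for ASC2 against ASC1 in control females, where Hoxc8 (adjusted p = 0.0704) and Hoxb8 (adjusted p = 0.111) did not pass, and 0 in ovariectomized females. With a block correlation, limma voom called 2 in control males and 1 for ovariectomy in ASC2, and Hoxa9 did not pass for ovariectomy in ASC1 (adjusted p = 0.0508). Most members had few reads, which limits the precision of their levels.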
